A study of Neurospora crassa with 4 samples.

Results

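The genes described here were at least halved in both ΔCFIm libraries of *Neurospora crassa*. They were chosen by their own values in the table of normalized read counts. In each gene, the lower of the control values was at least 2 times the higher of the ΔCFIm values, and the mean over the 4 libraries was at least 20. The rule selected 59 genes of the 7793 in the table, or 0.878% of the 6720 genes that reached the mean. Since the rule used these same libraries, the lower level of a selected gene in ΔCFIm is a description and not a finding, and no test of it is given. The rule turned round, at least doubled in both ΔCFIm libraries, selected 109 genes.

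The study asked whether loss of CFIm changes where mRNAs are polyadenylated and how strongly genes are expressed. ΔCFIm is strain 2029, in which hph cassettes (hygromycin resistance) replace *cpsf5* (NCU09014) and *cpsf6* (NCU02152). The control is strain 1785-1, which is labelled MAT A. The label of strain 2029 gives no mating type. Both strains carry the cbox-luciferase reporter with the barR marker at *csr-1*. Conidia of both were spread on cellophane-covered agar that held glucose (0.25%) and arginine (0.17%), and cultures were harvested after 72 hours of constant light at 25°C. There were 2 libraries per genotype, described by the study as biological duplicates, and each genotype is represented by 1 strain. Reads assigned to genes numbered 5572762 to 6053869 in a library, and 1 read was worth between 0.967 and 1.05 normalized read counts.

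CFIm is a part of the machinery that cuts a nascent mRNA and adds its poly(A) tail. CPSF5 binds a sequence upstream of the cut in animals, and CPSF6 is its partner. Loss of the complex is known to move polyadenylation to other sites in the 3′ UTRs of animals. In 3′ End Sequencing each mRNA gives 1 read directly before its poly(A) tail, so the reads on a gene were counted as its expression with no correction for length. Reads past an annotated 3′ end can be missed by such a count. Fewer cells that express a gene and less mRNA per cell cannot be told apart in these bulk cultures.

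The selected genes covered a wide range of levels. Their control means ran from 30.2 to 3169 normalized read counts with a median of 203, beside a median of 241 over the 6949 tested genes. In ΔCFIm their median was 55.7. Of the 59 genes, 9 had a control mean of at least 1000, 32 lay between 100 and 1000, and 18 were under 100. Together they took 0.166% and 0.164% of the normalized counts in the ΔCFIm libraries, and 0.501% and 0.497% in the control libraries. The median gene had 33.6% of its control mean in ΔCFIm. Only 5 genes were under 10%, another 10 lay between 10% and 25%, 31 between 25% and 40%, and 13 at 40% or more, with 48.2% the highest. Most of the set thus kept 25% or more of its control level, and a small group was nearly lost.

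**Figure D1:**
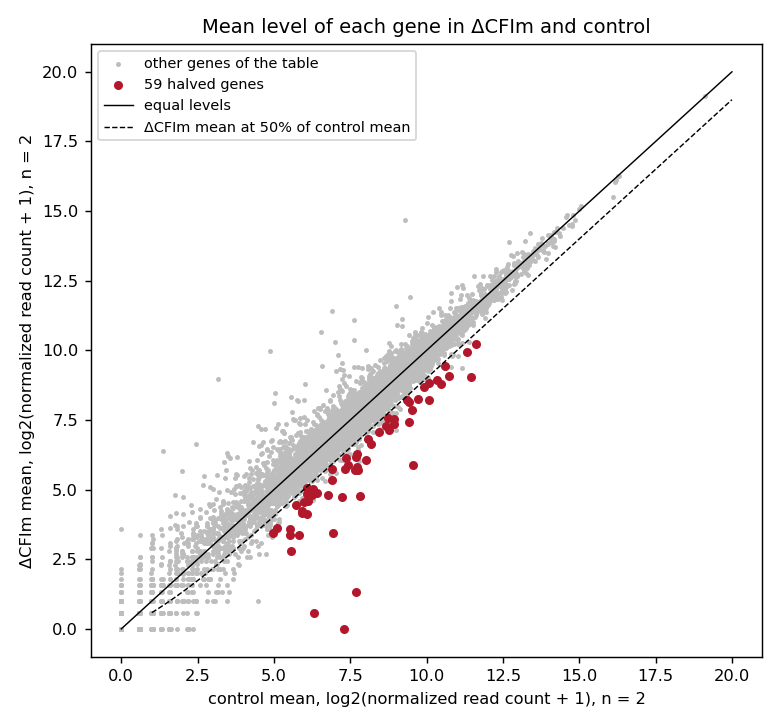
Mean normalized read count of every gene of the table in ΔCFIm (vertical axis) and control (horizontal axis), both as log2(value + 1), n = 2 libraries per genotype. The 59 halved genes, in red, lie under the dashed line of 50% by the rule itself, and 3 of them sit near the floor in ΔCFIm while the control values of the set run up to 3169.

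The deleted genes and 1 neighbor were among the genes with the lowest share of control. The *cpsf5* gene (linkage group III, 4240753 to 4242442 in the NC12 assembly) had 2.96 and 0 normalized read counts in the ΔCFIm libraries, against 214 and 192 in the control libraries. Both ΔCFIm values are at or under the floor of 3 reads. Over both libraries, ΔCFIm had 3 reads and control had 403, a 136-fold lower level (95% Clopper-Pearson interval 46.3 to 663, for counting error only). The *cpsf6* gene (linkage group I, 1067739 to 1071303) kept 25.7 and 25.96 normalized read counts in ΔCFIm, against 141 and 160 in control. Reads thus remained on the *cpsf6* locus at 17.2% of control, alike in both ΔCFIm libraries, while the *cpsf5* locus was nearly empty.

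NCU09013 lies beside *cpsf5*, and the annotated spans of the genes share 327 bases (NCU09013 runs from 4239684 to 4241079). It had 48.4 and 66.9 normalized read counts in ΔCFIm, against 755 and 740 in control, or 7.72% of the control mean. No function is annotated for it in the sources used here. Whether the replaced *cpsf5* sequence took part of this gene with it was not tested. The nearest genes of the table on the outer sides were not called by limma. NCU09012, on the far side of NCU09013, had 1116 and 1191 normalized read counts in ΔCFIm, against 898 and 895 in control. NCU09017, on the other side of *cpsf5*, had 217 in both ΔCFIm libraries, against 296 and 288 in control. The nearest genes of the table beside *cpsf6* were not called either, with log2 fold changes of 0.67 (NCU02153) and -0.16 (NCU02151). NCU16688, 1 place beyond NCU09012 in the table, was called lower by limma. It had 23.7 and 32.0 normalized read counts in ΔCFIm, against 63.0 and 80.2 in control. Around *cpsf5*, lower calls were thus measured in the deleted gene, in the gene that overlaps it and in NCU16688, with an uncalled gene between.

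Other components of polyadenylation served as a comparison. The list of this pathway held 4 genes, the deleted pair, *pabp-2* (NCU03946) and *nab2* (NCU16397), which encode poly(A)-binding proteins. The NCU03946 gene had 426 and 387 normalized read counts in ΔCFIm, against 383 and 395 in control. NCU16397 had 496 and 477 in ΔCFIm, against 493 and 562 in control. Neither passed the limma threshold (adjusted p = 0.874 and 0.756), and the libraries of the genotypes overlapped in both genes.

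Both selected genes of the mating system belong to mating type A. In *Neurospora* a strain carries either the A or the a idiomorph at the mating-type locus, and each type makes its own peptide pheromone. The *matA-1* gene (NCU01958, linkage group I, 1860692 to 1862194) lies in the A idiomorph and encodes a transcription factor needed for mating. It had 0 reads in both ΔCFIm libraries, against 152 and 160 normalized read counts in control. Against a floor of 3 reads in each library, it was at least 52.5-fold lower in ΔCFIm. The *ccg-4* gene (NCU02500, linkage group I, 2531832 to 2533997), a clock-controlled gene that encodes the precursor of the A pheromone, had 0.988 and 0 normalized read counts in ΔCFIm. Its control values were 57.8 and 99.6, which differ by more than those of most selected genes. With 1 read in ΔCFIm and 158 in control over both libraries, the level was 160-fold lower (95% interval 28.3 to 6365, for counting error only).

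The a pheromone moved the other way. *mfa-1* (NCU16992), which encodes the precursor of the a pheromone, had 19292 and 33258 normalized read counts in ΔCFIm, against 677 and 587 in control. It rose 41.6-fold (limma log2 fold change 5.33, SE 0.23, adjusted p = 7.05e-08), and no ΔCFIm library overlapped a control library. The pheromone receptor genes *pre-1* and *pre-2* had 0 reads in all 4 libraries, which allows up to 3 reads in each, and *matA-2* and *matA-3* were not analysed here. The nearest genes of the table on each side of *matA-1* were not called, with log2 fold changes of -0.48 (NCU01961) and -0.86 (NCU01957). Genes that the table lacks, *matA-2* and *matA-3* among them, were passed over in this order. The libraries labelled ΔCFIm thus lacked reads on a gene of the A idiomorph and were high in the a pheromone. Loss of CFIm and a difference in mating type cannot be told apart in this design. That holds for every gene described here except *cpsf5* and *cpsf6*, which were themselves deleted in the ΔCFIm strain.

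**Figure D2:**
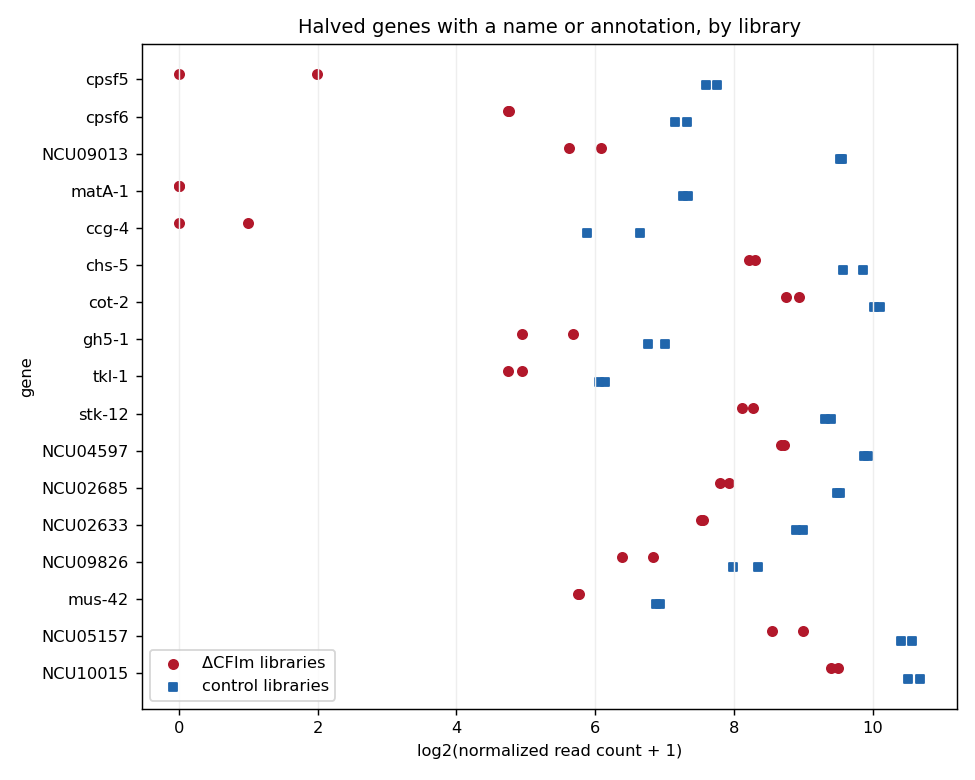
Values of 16 halved genes with a name or annotation, and of NCU09013, in each library, as log2(normalized read count + 1). Red circles are the 2 ΔCFIm libraries and blue squares the 2 control libraries. In *cpsf5*, *matA-1* and *ccg-4* the ΔCFIm libraries lie near 0, and in the other genes they lie at 17.2% to 44.9% of the control mean, NCU09013 excepted.

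Few of the selected genes carry a name in the sources used here. Symbols were annotated for 8, *cpsf5* and *cpsf6* are named in the strain labels, and the remainder were known by locus tag, with a product name or a name from the list of strains in the study's screen for some. In all, 16 of the 59 had a symbol, a screen name or a product name other than hypothetical protein, and 43 had none. Product names were at hand only for genes in the study's lists of genes with several poly(A) peaks, which held 9 of the 59. The other selected genes could not receive a product name, so its absence does not mean that their function is unknown.

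Another 3 named genes act at the cell wall or on carbohydrates. The *chs-5* gene (NCU04352, linkage group IV, 3672145 to 3678922) is annotated as chitin synthase C, and chitin synthases make the chitin of the wall. It had 297 and 315 normalized read counts in ΔCFIm, against 924 and 757 in control, or 36.4% of the control mean. The *cot-2* gene (NCU04189, also named *gs-1*, linkage group V, 5143236 to 5146931) is annotated as a glucan synthesis regulatory protein. Its values were 488 and 428 in ΔCFIm, against 1103 and 1035 in control (42.9%). The *gh5-1* gene (NCU00762, linkage group I, 7271711 to 7273785) belongs by its symbol to glycoside hydrolase family 5, whose enzymes cut glycosidic bonds. It was less abundant, with 50.4 and 29.96 in ΔCFIm, against 128 and 107 in control (34.1%). The duplicates of *gh5-1* in ΔCFIm lay further apart than those of *chs-5* and *cot-2*.

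Few of the related genes were called with these 3. Of 22 tested genes with a chitin synthase, wall protein or *cot-2* symbol, 2 were called lower by limma and 1 higher (*ncw-5*). The 2 were the selected genes *chs-5* and *cot-2*. Since the list names *cot-2* itself, that call was on it by choice. *gel-1*, which limma called lower just outside the rule, is not covered by these symbols. The median log2 fold change of the 22 genes was -0.08, beside -0.01 over all tested genes. Of 54 tested glycoside hydrolases, 2 were called lower, *gh5-1* and *gh76-7*, and 16 were called higher, with a median of 0.25. The share of all tested genes called by limma was 3.38% lower and 4.62% higher in ΔCFIm. Among glycoside hydrolases the calls were thus mostly in the opposite direction to *gh5-1*. Their lower calls numbered 5 without ΔCFIm replicate 1 and 4 without ΔCFIm replicate 2.

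Protein kinases formed another group. The *tkl-1* gene (NCU05808, linkage group VII, 3903454 to 3905928) had 25.7 and 29.96 normalized read counts in ΔCFIm, against 69.3 and 65.7 in control (41.2%). The *stk-12* gene (NCU07378, linkage group I, 6158890 to 6166641), annotated as a serine threonine protein kinase, had 309 and 278 in ΔCFIm, against 676 and 632 in control (44.8%). NCU04597 (linkage group V, 1561132 to 1564619) is annotated as mitogen-activated protein kinase MAF1, and had 410 and 419 in ΔCFIm, against 938 and 974 in control (43.4%). All 3 stood close to the upper end of the set, with duplicates that differed little. Of 81 tested kinases in the study's screen, 5 were called lower by limma (6.17%, beside 3.38% of all tested genes), among them *tkl-1* and *stk-12*, and 3 were called higher (3.70%, beside 4.62%). Their median log2 fold change was -0.05. The count of lower kinases was small and fell to 1 without control replicate 1 and to 2 without control replicate 2.

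Genes tied to RNA made up 3 more, besides *cpsf6*. NCU02685 (*mrpp-7* in the screen, linkage group I, 3193810 to 3201298) is annotated as a pre-mRNA splicing helicase. It had 242 and 223 normalized read counts in ΔCFIm, against 718 and 740 in control, or 31.9% of the control mean. NCU02633 (linkage group I, 3000744 to 3002757), which the screen lists under nuclear mRNA splicing, had 188 and 184 in ΔCFIm, against 509 and 476 in control (37.7%). NCU09826 (*mrp-62*, linkage group V, 521821 to 523920) had 83.0 and 113 in ΔCFIm, against 252 and 323 in control (34.1%). The splicing genes were alike in both duplicates, and *mrp-62* varied more within each genotype. Of 306 tested RNA-binding proteins of the screen, 9 were called lower (2.94%, beside 3.38% of all tested genes), these 3 and *cpsf6* among them, and 6 higher (1.96%, beside 4.62%). Their median log2 fold change was -0.04. Without control replicate 2 the lower calls fell to 5, and without ΔCFIm replicate 2 they numbered 20.

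The remaining annotated genes had separate functions. The *mus-42* gene (NCU02053, also named *rev1*, linkage group I, 1526760 to 1531289), a DNA repair gene by its symbol, had 53.4 and 52.9 normalized read counts in ΔCFIm, against 121 and 116 in control (44.9%). Of 20 tested *mus* genes, limma called *mus-42* and no other lower (5%, beside 3.38% of all tested genes). It called 1 higher (5%, beside 4.62%), and the lower calls numbered 2 with the replicate block. NCU05157 (linkage group VI, 3542966 to 3545802), annotated as cation diffusion facilitator 10, a family that carries metal ions across membranes, had 372 and 507 in ΔCFIm, against 1512 and 1352 in control (30.7%). Within ΔCFIm this transporter gene differed more between duplicates than within control.

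A monooxygenase gene and a neighbor were selected together. NCU10015 (linkage group VII, 1285293 to 1287942), annotated as monooxygenase-7, had 719 and 675 normalized read counts in ΔCFIm, against 1462 and 1646 in control (44.9%). NCU15835 (1287913 to 1296083) had 602 and 478 in ΔCFIm, against 1756 and 1666 in control (31.6%). Their annotated spans share 30 bases. The pair with NCU09013 and *cpsf5* was the only other case of selected genes next to each other in the gene order of the table. The strand setting of the counting is not given in the sources used here, so reads at such overlaps may have been split or left out. NCU15835 also overlaps NCU10016.

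Genes without an annotated function in the sources used here included the most abundant of the set. NCU07449 (linkage group I, 584437 to 585580), a hypothetical protein, had 1116 and 1311 normalized read counts in ΔCFIm, against 2868 and 3471 in control (38.3%). NCU02886 (linkage group I, 8803610 to 8805487) had 581 and 473 in ΔCFIm, against 3156 and 2411 in control. It stood at 18.9% of the control mean. NCU07894 (linkage group IV, 1426447 to 1432506) had 1113 and 849 in ΔCFIm, against 2270 and 2895 in control (37.98%), and overlaps NCU07895. The control libraries of these genes differed from each other, but by less than the libraries of the genotypes did.

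Another 4 abundant genes had control means between 680 and 1292. NCU07474 had 463 and 515 normalized read counts in ΔCFIm, against 1383 and 1201 in control (37.9%). NCU05982 had 252 and 343 in ΔCFIm, against 1102 and 1076 in control (27.3%). NCU16848, which overlaps NCU07316, had 185 and 160 in ΔCFIm, against 804 and 577 in control (24.9%). The largest difference between control duplicates in these 4 was that of NCU16848. NCU05182, a hypothetical protein, had 291 and 275 in ΔCFIm, against 713 and 647 in control (41.6%).

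Some genes of low or moderate level were reduced most. NCU07237 (linkage group V, 6138742 to 6139556) had 7.90 and 11.98 normalized read counts in ΔCFIm, against 125 and 119 in control, or 8.15% of the control mean. NCU09055 (linkage group VII, 478863 to 479476) had 26.7 and 25.96 in ΔCFIm, against 292 and 160 in control (11.7%). Its ΔCFIm libraries agreed closely, while the control libraries differed by more than those of most selected genes. NCU03653 (linkage group V, 1980982 to 1982706) had 1.98 and 9.99 in ΔCFIm, against 37.8 and 55.1 in control (12.9%). NCU16681, which overlaps NCU16682, had 9.88 and 8.99 in ΔCFIm, against 59.9 and 52.2 in control (16.8%).

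A further 4 completed the lowest 15. NCU00788 had 13.8 and 4.99 normalized read counts in ΔCFIm, against 41.0 and 48.3 in control (21.1%). NCU08668 had 58.3 and 42.9 in ΔCFIm, against 234 and 192 in control (23.7%). NCU02042 had 15.8 and 17.0 in ΔCFIm, against 62.0 and 72.5 in control (24.4%). Among these, NCU00788 rested on the fewest reads and varied most within ΔCFIm. NCU05812 had 9.88 and 11.98 in ΔCFIm, against 41.0 and 48.3 in control (24.5%).

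The other 23 genes lay between 25.1% and 42.8% of their control means, with control means from 30.2 to 492 normalized read counts. None has a symbol or a product name in the sources used here. None is in the study's lists of genes with several poly(A) peaks, the only source of product names. They are NCU00740, NCU01085, NCU01650, NCU01673, NCU01903, NCU02068, NCU02530, NCU03284, NCU03392, NCU03428, NCU03673, NCU03840, NCU03957, NCU04994, NCU05012, NCU05695, NCU06008, NCU07117, NCU08561, NCU09549, NCU16634, NCU17231 and NCU17268. Their median share of control was 33.9%, close to that of the whole set.

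The spread between duplicates is given as a description, since the rule used these values and favors genes whose duplicates are close. The median absolute log2 difference between duplicates was 0.23 in ΔCFIm and 0.16 in control, beside 0.24 and 0.18 over the tested genes. In ΔCFIm, 50 of the 59 genes had libraries within 1.5-fold of each other, and in control 55 did. The widest spreads in ΔCFIm, apart from genes with no reads in both libraries, were in *cpsf5*, NCU03653 and NCU00788, all with few reads there. Neither ΔCFIm library was the lower across the set, since replicate 1 was the higher in 30 genes. By replicate number, the median log2 fold change of the selected genes was -1.57 for replicate 1 and -1.55 for replicate 2. Without *cpsf5*, *cpsf6*, NCU09013, *matA-1* and *ccg-4*, the median over the other 54 genes was -1.52, beside -1.57 for all 59.

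**Figure D3:**
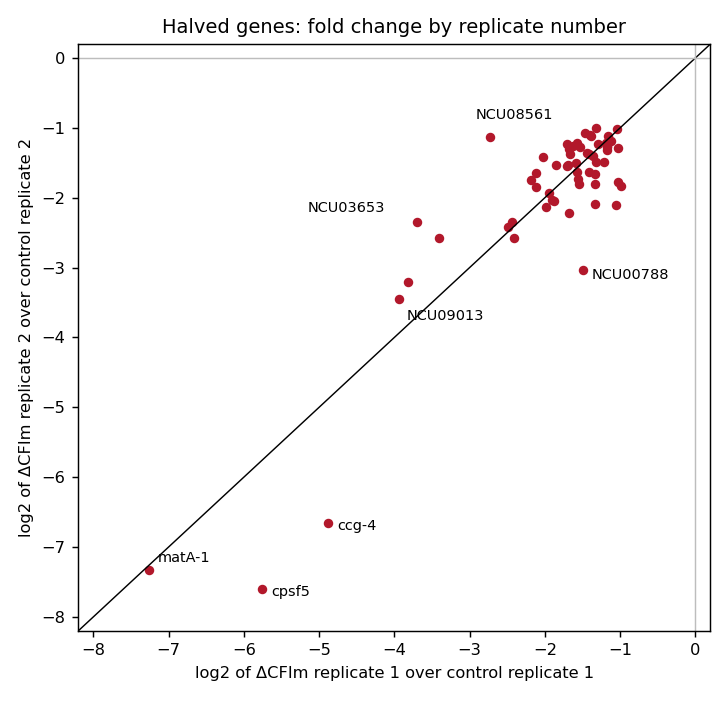
Log2 ratio of ΔCFIm to control for each of the 59 halved genes, with a pseudocount of 1, in replicate 2 (vertical axis) and replicate 1 (horizontal axis). Each point is a gene and the diagonal marks equal ratios. All points lie under 0 in both by the rule, and the points farthest from the diagonal (*cpsf5*, *ccg-4*, NCU08561, NCU00788, NCU03653) include those with the fewest reads.

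Calls across all genes were made as background. Of the 6949 tested genes, limma called 235 lower in ΔCFIm (3.38%), and edgeR called 300 (4.32%) and DESeq2 202 (2.91%) on the recovered reads. All 59 selected genes were among the calls of limma and of edgeR, and 55 among those of DESeq2. The 4 that DESeq2 left out were NCU01903, NCU02904, NCU03392 and NCU16634. These calls used the same contrast as the rule, so nothing is read from them. Conversely, 176 genes called lower by limma were outside the rule.

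The rule cuts through a continuous range. Just inside the ratio were NCU08490 (85.0 and 69.9 normalized read counts in ΔCFIm, against 249 and 170 in control), NCU02904 (31.6 and 33.0, against 66.2 and 67.7) and NCU00283 (175 and 206, against 438 and 414). Just outside were *gel-1* (NCU01162; 20.7 and 27.0 in ΔCFIm, against 53.6 and 102 in control), NCU16688 (23.7 and 32.0, against 63.0 and 80.2) and *gh76-7* (NCU03770; 183 and 174, against 359 and 369). Limma called these 3 lower as well, so the threshold does not separate called from uncalled genes. The lowest mean over the 4 libraries inside the rule was 20.1 (NCU03392), and the highest outside it was 19.4 (NCU08429).

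The selected genes were spread over all 7 linkage groups. Linkage group I held 19 of them (32.2%), beside 25.6% of the 6948 tested genes with a position. Linkage group IV held 5 (8.47%), beside 14.9%. Linkage groups II, III, V, VI and VII held 5, 7, 9, 7 and 7. The *cpsf6* and mating-type loci both lie on linkage group I. Within 500 kb of *cpsf5*, *cpsf6* or *matA-1*, leaving these genes out, 6 of 511 tested genes were selected (1.17%), against 50 of 6434 elsewhere (0.777%). By locus, the share was 1 of 194 near *cpsf5* (0.515%), 3 of 168 near *cpsf6* (1.79%) and 4 of 186 near *matA-1* (2.15%). The 6 were NCU09013 near *cpsf5*, NCU07449 near *cpsf6*, NCU01903 and NCU02042 near *matA-1*, and NCU02068 and *mus-42* near both. The windows around *cpsf6* and *matA-1* share genes, and these shares rest on few selected genes.

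**Figure D4:**
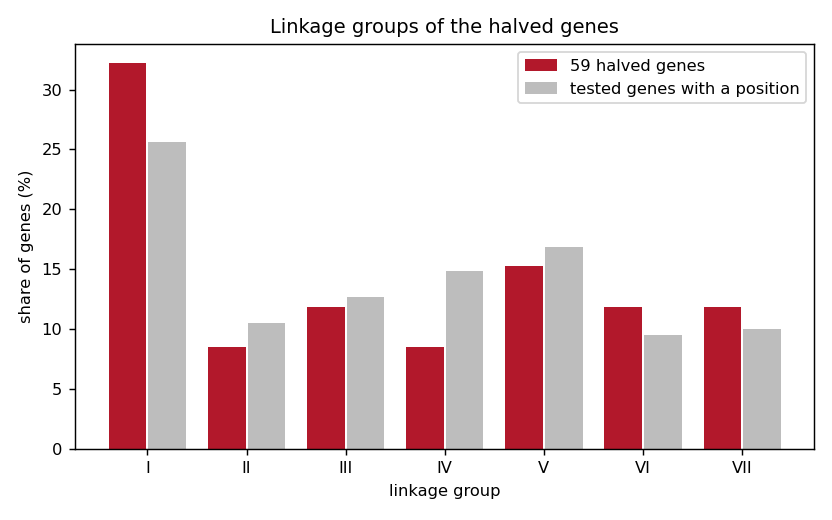
Share of the 59 halved genes (red, left bar) and of the 6948 tested genes with a position (gray, right bar) on each linkage group, in percent. Linkage group I held 32.2% of the halved genes beside 25.6% of tested genes, and linkage group IV 8.47% beside 14.9%.

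Few neighboring genes were called lower. Neighbors here are the nearest genes in the order of the table, and genes that the table lacks were passed over. Of 99 tested genes that stand next to a selected gene and were not selected themselves, limma called 0 lower (9 had an unadjusted p under 0.05, edgeR called 2 and DESeq2 0) and 6 higher (6.06%, beside 4.62% of all tested genes). Their median log2 fold change was 0.02, and the values ran from -0.86 to 2.77. The 6 higher neighbors were NCU02634, NCU03283, NCU03388, NCU05159, NCU06009 and NCU09551. Genes 2 or 3 places away had medians between -0.09 and 0.04. Selected genes that stand next to each other, the 2 overlapping pairs, were left out of these counts by their selection.

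**Figure D5:**
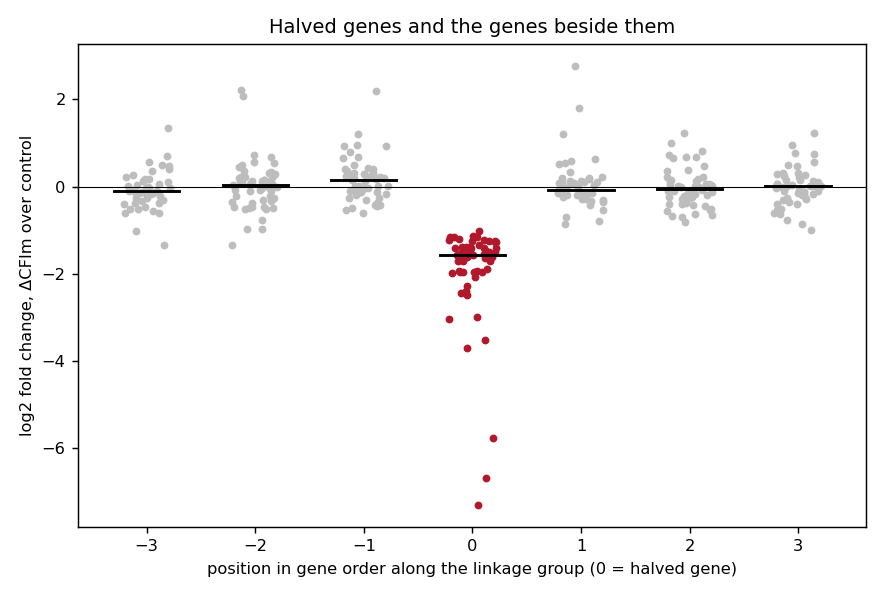
Log2 fold change (ΔCFIm over control, limma) of the halved genes (position 0, red) and of tested genes near them (gray). Gray genes are up to 3 places away in the gene order of the table and are not halved themselves. Bars are medians, -1.57 at position 0 and between -0.09 and 0.14 beside it.

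Gene models of the selected genes were slightly shorter in the median than others. Their median annotated length was 2075 bases (614 to 8171), beside 2423 over the tested genes. The annotated span of 14 of the 59 (23.7%) overlapped another protein-coding gene, beside 27.6% of tested genes. Overlap of gene models was thus no more frequent in the set than in the table.

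Poly(A) site usage was looked up in the study's lists of genes with more than 1 poly(A) peak, which rest on the same 4 libraries. Of the 59 genes, 9 (15.3%) were on the list, beside 20.8% of tested genes. Altered usage was listed for 3 (5.08%), beside 6.78%. In NCU07449 several peaks became 1, and in NCU04597 and NCU10015 the predominant peak moved. The other 6 were NCU02685, *cot-2*, *chs-5*, NCU05157, NCU05182 and *stk-12*. Both shares lay close to those of all tested genes. The peaks themselves were not analysed here.

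Other lists were counted for the state of the cultures. The marker genes of conidiation (*eas*, *con-6*, *con-10*, *fl*, *al-1* and *al-2*) were present in every library, and limma, edgeR and DESeq2 called 0 of the 6 (1 had an unadjusted p under 0.05). Most of their summed level was *eas*, with 611475 and 545275 normalized read counts in ΔCFIm, against 562943 and 584252 in control. The second most abundant, *con-10*, had 52848 and 103957 in ΔCFIm, against 89366 and 69319 in control, so its ΔCFIm libraries lay further apart than the means of the genotypes. Of 4 sexual development genes in the table, *sub-1* was called higher (1.78-fold, adjusted p = 0.0243 from limma). Their sum was 5422 and 14722 in ΔCFIm, against 9675 and 15478 in control. The growth markers *act* and *tef-1* were not called, with sums of 76403 and 71403 in ΔCFIm, against 84315 and 73944 in control. Of the clock genes *wc-2*, *frq*, *wc-1* and *vvd*, limma called 1 lower (25%, beside 3.38% of all tested genes). This was *wc-2*, at 61.7% of its control mean (adjusted p = 0.0281 from limma), and it was not selected. None of these markers was among the 59 genes.

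Lists of broad function were counted in the same fit, in which 3.38% of all tested genes were called lower and 4.62% higher. Among genes with a product name, 1 of 32 transporters was called lower by limma and 2 higher, 6 of 75 oxidoreductases were called lower and 6 higher (8% each), 1 of 24 peptidases was called lower and 2 higher, and of 37 transcription factors 0 were called lower by limma (6 at an unadjusted p under 0.05, and 1 each by edgeR and DESeq2) and 2 higher. Hypothetical proteins had 17 lower (4.22%) and 14 higher (3.47%) calls of 403. The 7 ribosomal protein genes with a *crp* symbol and the 10 heat shock genes had 0 calls by limma, edgeR and DESeq2, and 0 at an unadjusted p under 0.05. Lists by product name could hold only genes with several poly(A) peaks in the study's lists, which included 9 of the 59. Their low counts of selected genes were thus set in part by that source. Their shares of calls may differ from those of all genes of the same function. The selected genes in them were NCU05157 among transporters, NCU10015 among oxidoreductases, and NCU07449 and NCU05182 among hypothetical proteins.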

How the data were processed

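3′ End Sequencing libraries (Lexogen QuantSeq 3′ REV, stranded single-end reads) were made from 2 ΔCFIm and 2 control cultures. The authors checked reads with FastQC, aligned them to the NC12 genome with STAR, counted reads per gene with HTSeq and scaled by library size. Versions and the strand setting of the counting are not given in the sources used here. The deposited values are a normalized signal per gene, read counts times 1 factor per library, called normalized read counts. Replicates were not pooled in the fits. Reads of the duplicates were summed for the fold values of *cpsf5*, *matA-1* and *ccg-4* that rest on reads. Dividing each library by its smallest step gave whole reads for 100% of values (tolerance 1e-06).

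Genes were selected by the rule above and matched to the RefSeq annotation of NC12 (7792 of 7793 genes). Product names came from the study's supplementary tables of genes with several poly(A) peaks, so other genes had none. The selected genes and the lists were chosen with earlier results of these data known. The named genes were *cpsf5*, *cpsf6*, the mating list, the 15 lowest by ratio, the 15 highest in control, neighbors of each other, those with a symbol, the 3 on each side of the threshold and the 3 widest in spread. NCU02633, NCU09826 and the list of the other 23 were named after their values were seen, as were the kinase, RNA-binding and *mus* lists.

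Limma 3.58.1 (R 4.3.3; eBayes with a trend) was fitted on log2(value + 1) to 6949 genes whose mean reached 10, with Benjamini-Hochberg adjustment and a threshold of 0.05. This scale understates the change of low genes. Duplicates are the only replication. Each limma p-value sets the genotype difference against a spread pooled over both genotypes and drawn toward a trend over the tested genes. An exact permutation test of 2 against 2 cannot go below 0.333. Alternatives were pseudocounts of 0.1 and 5, other filters, median-of-ratios and quantile scaling, a replicate block, eBayes without a trend, edgeR 4.0.16, DESeq2 1.42.0, other thresholds of the rule and each library left out. The fits were tested on simulated data. Promoter motifs were planned and not analysed here.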

Additional observations from a re-analysis of the deposited data

How the results depend on the processing

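The rule selected 191 genes at a ratio of at least 1.5 and 17 at a ratio of at least 3, and 67, 44, 62, 63 and 56 with a mean of at least 10, a mean of at least 50, median-of-ratios scaling, quantile normalization and a pseudocount of 1. Under these scalings 57 and 56 of the 59 genes were kept. With 1 library left out, 75 to 128 genes were selected (128 without ΔCFIm replicate 1, 108 without ΔCFIm replicate 2 and 94 without control replicate 1), since fewer values had to meet the rule, and 54 to 59 of the 59 were kept. The median log2 fold change of the selected genes was -1.60 with a pseudocount of 0.1, -1.51 with a pseudocount of 5 and -1.59 with quantile normalization, and ran from -1.59 to -1.58 with 1 library left out. Its direction was set by the selection. Scaling moved the median of all tested genes by at most 0.02.

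With the replicate number as a block, limma called 384 genes lower and 506 higher, against 235 and 321 without it. The labels do not say what a shared number stands for, and deviations of libraries with the same number were weakly correlated across the 6949 genes, which are not independent replicates (Pearson's r = 0.137, Spearman's rho = 0.160, description only). With 1 library left out, 121 to 442 genes were called lower and 217 to 674 higher, and 52 to 59 of the selected genes were called. The lone library is then assumed to vary like the other genotype. The lower calls numbered 406 without ΔCFIm replicate 1, 442 without ΔCFIm replicate 2, 157 without control replicate 1 and 121 without control replicate 2. Of 340 recomputed log2 fold changes of the 34 named genes, 277 moved by no more than the SD between replicate numbers and 63 by more. The ratios of replicate number 1 alone and of replicate number 2 alone are among the 340. By arithmetic these always lie within that SD, so the 277 overstates the stability. Their sign was set by the selection. Genes with under 20 reads in both ΔCFIm libraries (12 of the 59) have ratios limited by counting error. Counts of calls in small lists depended on 1 library. Without ΔCFIm replicate 2, higher calls numbered 10 in kinases, 13 in RNA-binding proteins, 4 in wall genes and 4 in *mus* genes, and without control replicate 1 they numbered 2 in RNA-binding proteins, 3 in wall genes and 0 in *mus* genes.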
